A study of Bos taurus with 16 samples.

Results

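TIMP1 and A2M, the genes of 2 secreted protease inhibitors, were followed through 16 RNA-seq libraries of follicular cells of cattle (Bos taurus). They are 2 of 36824 entries in the deposited count table. They were picked by name, with earlier results known: both stood far higher in granulosa than in cumulus cells, and the A2M side difference in granulosa cells and the odd place of 1 library had been seen. Cumulus cells surround the oocyte, and granulosa cells line the wall of the ovarian follicle. The corpus luteum is the gland that forms from an ovulated follicle and secretes progesterone. Follicles on the same ovary as it are called ipsilateral, and those on the other ovary contralateral. With each side sampled for cumulus and for granulosa cells, there were 4 groups of 4 libraries. Per the design text each pool of cumulus-oocyte complexes held material of 3 animals. The labels give no genotype, breed, age or agent, do not describe how granulosa cells were collected, and do not tell whether 1 animal gave cells to several groups. The p values therefore measure the spread between pools.

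TIMP1 (tissue inhibitor of metalloproteinases) binds the active site of matrix metalloproteinases, the enzymes that cut collagens and other matrix proteins. A2M (alpha-2-macroglobulin) is a large secreted protein that traps proteases of several classes after they cut its bait region, and the complex is then taken up through the receptor LRP1. The follicle wall is rebuilt as the follicle grows and is broken down at ovulation, and inhibitors of both kinds are known from follicular fluid. Granulosa cells are a known source of TIMP1 in the ovary.

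The 16 library totals ran from 10.1 to 21.9 M (1 M is 1000000 counts). Levels are given as CPM, that is, counts scaled by TMM to a library of 1000000 counts. A count of 0 would have allowed 3 counts, or 0.135 to 0.316 CPM, and both genes were above this in all 16 libraries. CPM takes no account of transcript length, so the level of TIMP1 is not compared with that of A2M. In such bulk libraries fewer cells of a type and less RNA per cell cannot be told apart. The fixed marker lists could not check the labelled cell types, since 0 of 15 granulosa and 0 of 9 cumulus markers were found by name among entries that mostly carry Ensembl IDs.

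TIMP1 was among the most abundant entries of granulosa cells, between rank 21 and rank 51 of all entries in each library, and between rank 2601 and rank 8484 in cumulus libraries. The ipsilateral granulosa libraries 1 to 4 held 2274, 1598, 2760 and 1406 CPM, and the contralateral ones 2453, 2009, 1814 and 1780 CPM. The ipsilateral values enclosed all the contralateral ones. In cumulus cells the ipsilateral libraries held 46.9, 83.1, 38.9 and 14.9 CPM, and the contralateral ones 56.1, 62.9, 71.9 and 41.1 CPM. Here too the ipsilateral range was the wider one and took in the contralateral range, with ipsilateral library 2 the highest and library 4 the lowest of the 8. The counts behind these values ran from 244 to 43130 per library. Relative to the level, the 95% exact (Clopper-Pearson) interval was widest in ipsilateral cumulus library 4, at 13.05 to 16.84 CPM. Among granulosa libraries it was widest in contralateral library 1, at 2421 to 2484 CPM. Such intervals hold the error of counting reads alone, and they are too narrow where PCR copies of 1 molecule were read more than once.

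A2M stood between rank 138 and rank 593 in granulosa libraries and between rank 7638 and rank 14590 in cumulus libraries. The ipsilateral granulosa libraries 1 to 4 held 427, 521, 540 and 271 CPM. The contralateral ones held 643, 592, 763 and 592 CPM. All contralateral granulosa libraries lay above all ipsilateral ones, and ipsilateral library 4 was the lowest for A2M as it was for TIMP1. Contralateral cumulus libraries 1 to 4 held A2M at 4.88, 19.2, 12.1 and 8.98 CPM. Ipsilateral cumulus libraries 1, 3 and 4 held 1.69, 1.41 and 1.16 CPM. Ipsilateral cumulus library 2, shown apart here, held 16.8 CPM, which is inside the contralateral range.

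**Figure D1:**
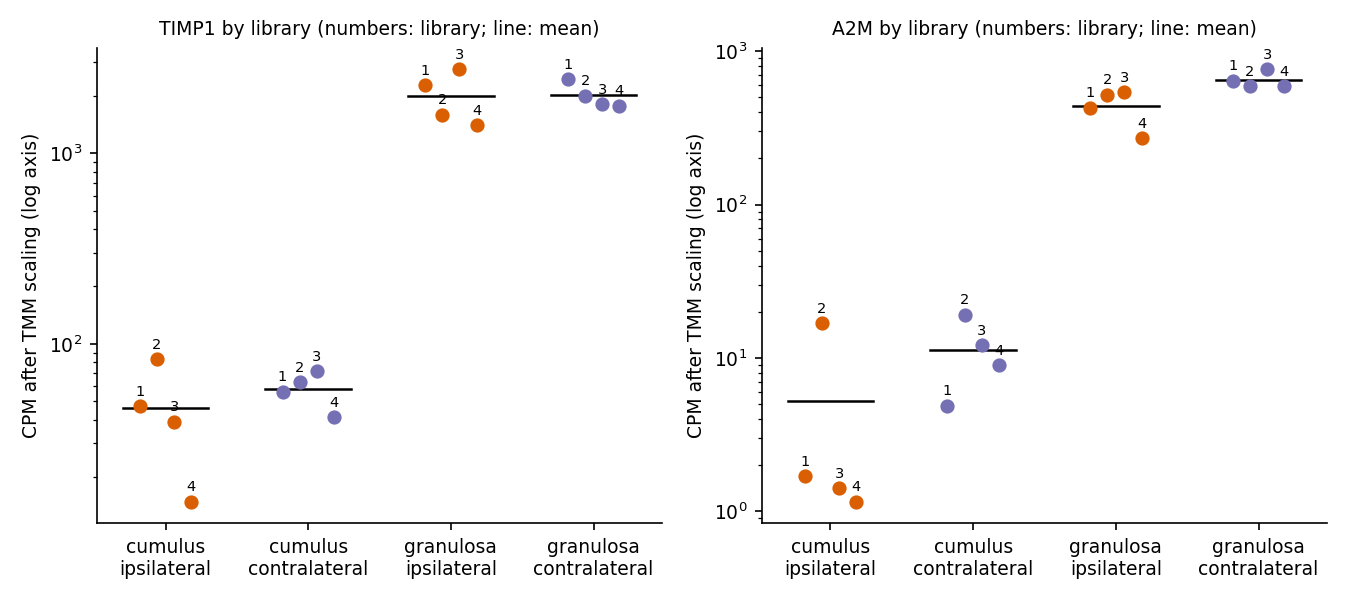
Level of TIMP1 (left) and A2M (right) in each library, in CPM after TMM scaling on a log axis, by cell type and side, with library numbers at the points and a line at the group mean. All granulosa points lie above all cumulus points, and ipsilateral cumulus library 2 lies apart from the other 3 of its group for A2M.

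Since both genes were chosen for the difference between cell types, it is described here without a test. The lowest granulosa library stood 16.9-fold above the highest cumulus library for TIMP1 and 14.1-fold for A2M. Over the 18038 entries tested, 14.5% likewise had all granulosa above all cumulus libraries, and 60.2% were called in edgeR's test of the cell types, with 29.9% higher and 30.3% lower in cumulus cells. These shares are given as background, and nothing is read from them, since the members were chosen on this contrast. The median log2 difference over all entries tested was 0.03. The order of the group means of TIMP1 was contralateral granulosa (2014 ± 309 CPM), ipsilateral granulosa (2009 ± 624 CPM), contralateral cumulus (58.0 ± 12.98 CPM) and ipsilateral cumulus (45.9 ± 28.3 CPM, SD, n = 4 each). Within a cell type the 2 means differed by less than the SD of either group. For A2M the same order held, at 647 ± 80.5, 440 ± 123, 11.3 ± 6.03 and 5.26 ± 7.68 CPM (SD, n = 4 each). The cumulus means differed by less than the larger of their SDs, and the granulosa means by more than both of theirs.

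Split by side, the ratio of the granulosa to the cumulus mean of TIMP1 was 43.8 on the ipsilateral and 34.7 on the contralateral side. The A2M ratios were 83.7 and 57.4. Without ipsilateral cumulus library 2 the ipsilateral ratios became 59.9 for TIMP1 and 310 for A2M, and the fold of A2M over all libraries, from edgeR's fit, went from 70.8 to 134. That 1 library thus decides the size of the A2M ratio.

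Ipsilateral cumulus library 2 held 183 A2M counts, where libraries 1, 3 and 4 of its group held 20, 21 and 19. Its 95% interval ran from 14.4 to 19.4 CPM, and the intervals of the other 3 together spanned 0.696 to 2.61 CPM. The library stood 11.8-fold above the mean of the other 3 for A2M and 2.48-fold for TIMP1. Ranked by this ratio with 1 CPM added to both sides, A2M came 8th of 16323 entries tested in cumulus cells and TIMP1 came 53rd, where the median ratio of all entries was 0.99. The library was set apart with its A2M level already known, so the high place of A2M follows from that choice and is a description.

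**Figure D2:**
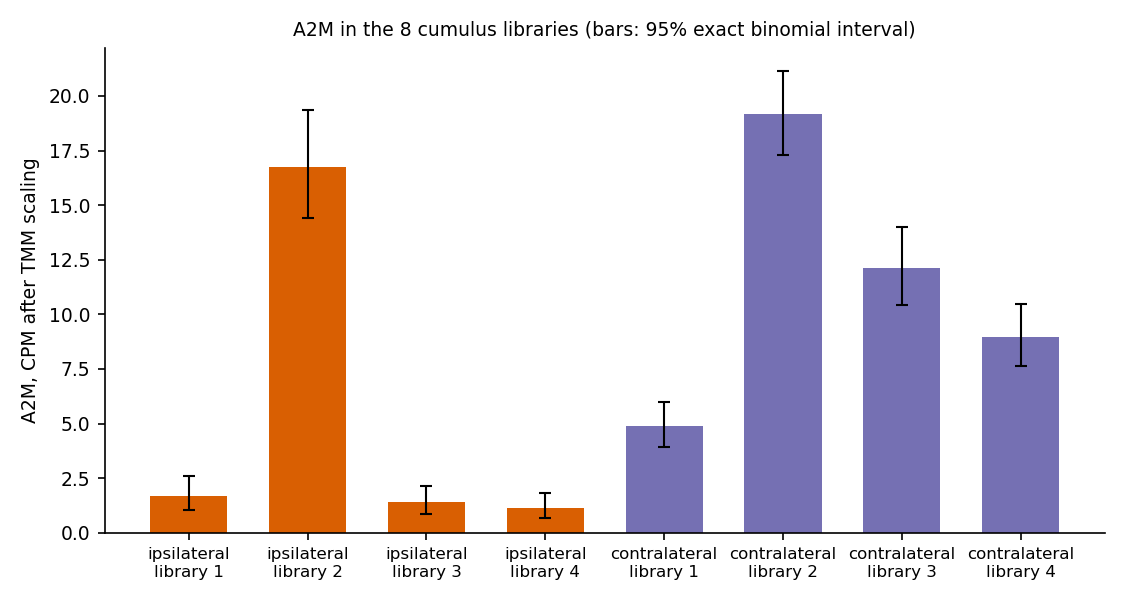
A2M in the 8 cumulus libraries, in CPM after TMM scaling, as bars from 0 with 95% exact binomial intervals that cover counting error only. Ipsilateral library 2 (16.8 CPM) lies among the contralateral libraries (4.88 to 19.2 CPM), and the other ipsilateral libraries lie at 1.69 CPM or less.

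Entries that are high in granulosa cells were also followed through the cumulus libraries. A set of 139 entries was taken that stood at 20 CPM or more in granulosa cells and at least 32-fold above their median in cumulus cells, without TIMP1, A2M and 2 entries whose counts ran close to those of TIMP1 or above them by a near-constant amount. This set was chosen on these libraries and is given as a description. The median entry stood at 2.36% of its granulosa mean in ipsilateral cumulus library 2 and at 0.782%, 0.496% and 0.306% in libraries 1, 3 and 4. In contralateral cumulus libraries 1 to 4 it stood at 0.420%, 1.80%, 0.944% and 1.77%. Of the 139 entries, 60 had their highest cumulus value in ipsilateral library 2, 36 in contralateral library 4 and 17 in contralateral library 2. The summed level of the set ran from 185 CPM in ipsilateral library 4 to 1377 CPM in ipsilateral library 2, and 1020 CPM in contralateral library 2 was the next highest.

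On the same scale A2M stood at 0.311%, 3.09%, 0.260% and 0.213% of its granulosa mean in ipsilateral cumulus libraries 1 to 4. The contralateral values were 0.898%, 3.53%, 2.23% and 1.65%. Counted from the highest, A2M held place 91 in ipsilateral library 1 and place 29 in contralateral library 2 when ranked against the set. In ipsilateral library 2 it held place 45. TIMP1 stood at 2.33%, 4.13%, 1.93% and 0.738% in the ipsilateral and at 2.79%, 3.13%, 3.57% and 2.05% in the contralateral libraries, above the median of the set in all 8. The set held only entries at least 32-fold above their cumulus median, and the fold of TIMP1 between cell types by edgeR was 39.0. The place of TIMP1 above the median is therefore favoured by that cut and is a description. A2M lay below the median of the set in ipsilateral libraries 1, 3 and 4 and in contralateral library 4, and above it in the other 4. The part of what moved these 139 entries in the cumulus levels of TIMP1 and A2M was not tested.

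**Figure D3:**
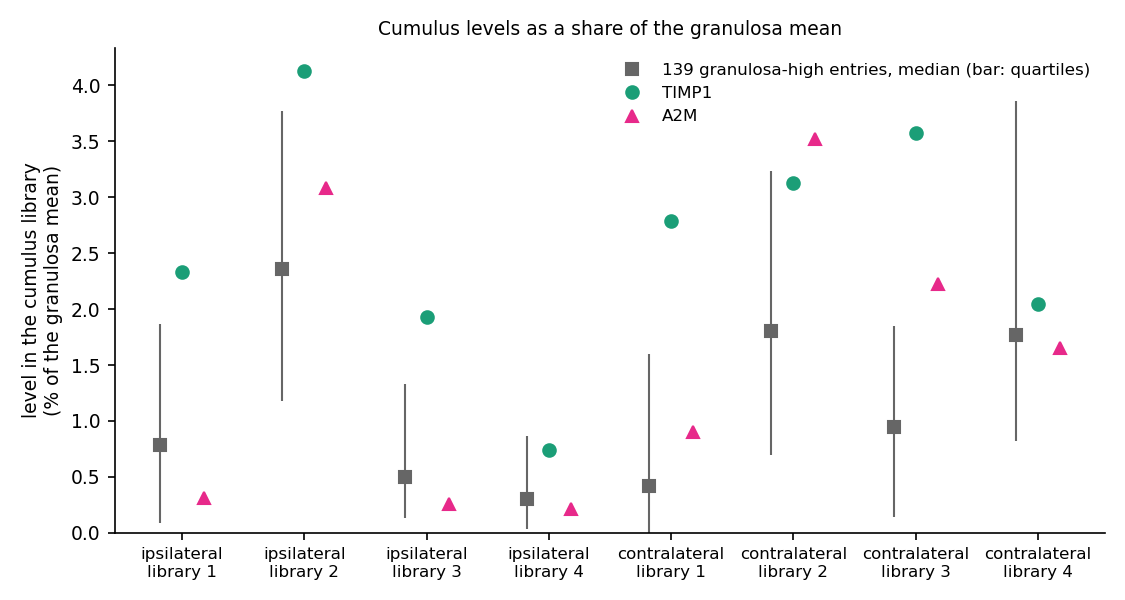
Level of TIMP1, of A2M and of the median of 139 granulosa-high entries (with lower and upper quartile) in each cumulus library, as a percentage of their own granulosa mean. All 3 are high in ipsilateral library 2, where TIMP1 stands at 4.13%, A2M at 3.09% and the median at 2.36%.

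Across the 8 cumulus libraries TIMP1 and A2M were high and low together, with a Pearson r of 0.77 (exact permutation p = 0.0230, adjusted p = 0.0460 over 2 relations) and a Spearman rho of 0.86 (exact permutation p = 0.0107, adjusted p = 0.0214, two-sided). The 8 points pool both sides, whose 4 libraries each are too few for an r of their own, and the genes at each point share library and depth. The odd place of ipsilateral library 2 was known when the genes were picked, so these p values are not independent evidence of a relation. TIMP1 had its highest cumulus value in that library, while A2M had its own in contralateral library 2 (19.2 CPM, against 16.8 CPM). Of the 139 granulosa-high entries, a set chosen on these libraries, 60 had their highest cumulus value in ipsilateral library 2. A high value there is thus not particular to these genes. Without ipsilateral libraries 2 and 4, the farthest from the TIMP1 median, Pearson's r was 0.67 (exact permutation p = 0.153, n = 6) and Spearman's rho 0.77. Each of 6 single libraries also took the adjusted p of Pearson's r past 0.05 when left out, with r between 0.69 and 0.80. They were ipsilateral libraries 1 to 4 and contralateral libraries 1 and 3 (adjusted exact permutation p from 0.0651 to 0.125). With single libraries left out, the exact permutation p of Spearman's rho, without adjustment, ran from 0.0123 to 0.0480. In granulosa cells r was 0.28 (exact permutation p = 0.515, adjusted p = 0.515) and rho 0.31 (exact permutation p = 0.462, adjusted p = 0.462, n = 8). It turned to -0.22 without ipsilateral library 4, the library lowest in both genes. Whether the relation differs between the cell types was not tested.

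**Figure D4:**
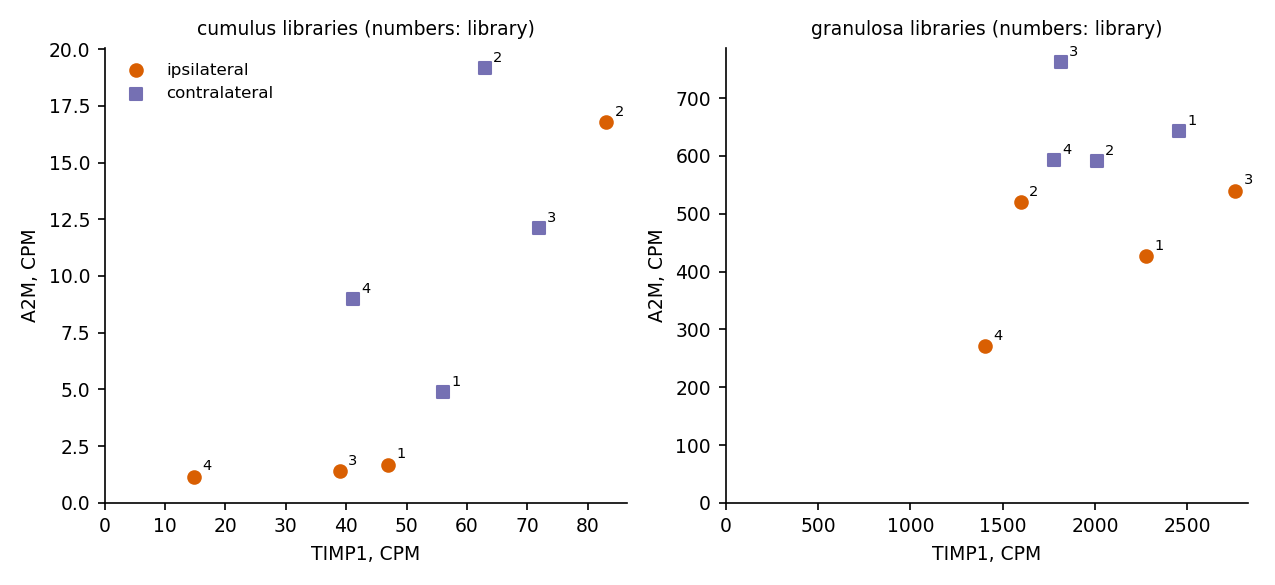
A2M against TIMP1, both in CPM after TMM scaling with axes from 0, in the 8 cumulus (left) and the 8 granulosa (right) libraries, marked by side and numbered. In cumulus cells ipsilateral library 4 is the lowest in both genes (14.9 CPM of TIMP1, 1.16 CPM of A2M). Ipsilateral library 2 is the highest in TIMP1 (83.1 CPM, with 16.8 CPM of A2M). Contralateral library 2 is the highest in A2M (19.2 CPM, with 62.9 CPM of TIMP1).

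The side comparison addresses the closeness of the corpus luteum, which the title of the series names. In cumulus cells neither gene passed edgeR's quasi-likelihood test, in which 0% of 16323 entries were called and 11% had an unadjusted p under 0.05. The log2 fold change, ipsilateral minus contralateral, was -0.35 ± 0.45 SE for TIMP1 (adjusted p = 0.812) and -1.14 ± 0.94 SE for A2M (adjusted p = 0.673). A median of -0.01 was seen over all entries. The exact permutation test of the mean CPM gave p = 0.486 for TIMP1 and p = 0.286 for A2M (two-sided, adjusted p = 0.648 and 0.571 over 4 tests, n = 4 against 4). The smallest p this test allows is 0.0286. With all 8 libraries the sides overlapped for both genes, where 2.39% of all entries had all ipsilateral below all contralateral libraries.

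Without ipsilateral cumulus library 2, the A2M means were 1.42 ± 0.267 CPM on the ipsilateral (SD, n = 3) and 11.3 ± 6.03 CPM on the contralateral side (SD, n = 4), a ratio of 7.95, and the sides no longer overlapped. The same held for 4.06% of all entries with that library left out. The log2 fold change was then -3.01 ± 0.46 SE, and A2M had the 2nd smallest p of 16730 entries by edgeR, but did not pass (adjusted p = 0.299, with 0% called). DESeq2, run without this library as an alternative added after the data had been seen, gave A2M an adjusted p of 1.403e-07, and called 0.35% of entries. With all 8 libraries DESeq2 gave A2M an adjusted p of 0.725 while it called 0.434% of entries. The exact permutation test without the library gave p = 0.0571 (two-sided, adjusted p = 0.114). Leaving out this library after its A2M value had been seen makes the sides differ more by construction, so these values describe the data and are not a test of the side.

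For TIMP1 the sides still overlapped without that library, at 33.6 ± 16.7 CPM (SD, n = 3) against 58.0 ± 12.98 CPM (SD, n = 4), with a log2 fold change of -0.80 ± 0.36 SE (adjusted p = 0.598 by edgeR). Leaving out ipsilateral library 4 in its place brought TIMP1 to -0.05. Contralateral cumulus library 4 held 1966 of the 2207 cumulus counts of the oocyte gene BCL2L10, and without it the log2 fold change was -0.48 for TIMP1 and -1.24 for A2M.

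In granulosa cells A2M stood at 440 ± 123 CPM on the ipsilateral and 647 ± 80.5 CPM on the contralateral side, a ratio of 1.47, with no overlap of the libraries. Of all entries, 1.4% likewise had all ipsilateral below all contralateral libraries. The log2 fold change was -0.56 ± 0.20 SE, which did not pass edgeR's test (adjusted p = 0.9996, unadjusted p = 0.0214), where 0% of 16411 entries were called and 3.53% had an unadjusted p under 0.05. DESeq2 called 0.0037% of entries, and A2M was not among them (adjusted p = 0.9995). The exact permutation test gave p = 0.0286, the smallest it can give, and an adjusted p of 0.114 over 4 tests. With 1 library left out, the A2M difference had log2 fold changes from -0.68 to -0.39, the smallest without ipsilateral library 4. As the sides do not overlap, no single library could turn the sign of the A2M difference, so its lasting sign adds no evidence. This difference was known when A2M was chosen, and is not independent evidence of a side effect.

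TIMP1 in granulosa cells had a log2 fold change of 0.00 ± 0.21 SE (adjusted p = 0.9996 by edgeR) and an exact permutation p of 1. With single libraries left out it ran from -0.19 to 0.13. At this SE a side difference of TIMP1 as large as that of A2M in the same cells, -0.56, would lie more than 2 SE away. The A2M difference itself lay more than 2 SE from 0 without passing the test, so no conclusion on TIMP1 is drawn from this distance.

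**Figure D5:**
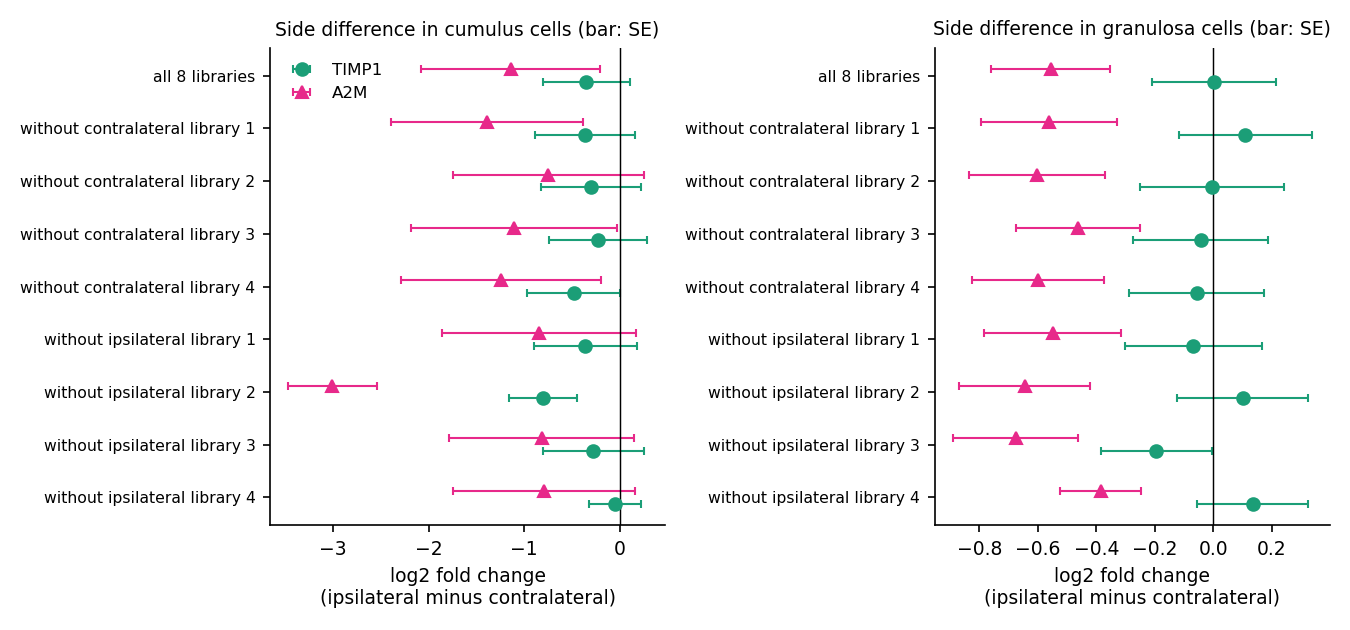
Log2 fold change, ipsilateral minus contralateral, of TIMP1 and A2M by edgeR in cumulus (left) and granulosa (right) cells with all 8 libraries and with each library left out, with error bars of 1 SE; the panels differ in axis range. In cumulus cells A2M moves from -1.14 to -3.01 without ipsilateral library 2, and in granulosa cells TIMP1 stays near 0. A2M lies below 0 in granulosa cells throughout, which follows from the lack of overlap between its sides.

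The difference of the side effects, cumulus minus granulosa, was -0.34 ± 0.52 SE for TIMP1 (adjusted p = 0.922) and -0.61 ± 0.93 SE for A2M (adjusted p = 0.919) by edgeR, with 0% of 18038 entries called. Without ipsilateral cumulus library 2 that of A2M was -2.45 ± 0.53 SE (adjusted p = 0.789, again with 0% called). DESeq2 without this library gave an adjusted p of 0.00190 and called 0.0893% of entries, and with all libraries it gave 0.999 and called 0.00342%. Here too the library was left out after its A2M value had been seen, which widens the A2M difference by construction. The values without it describe the data and are not a test.

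The counts of TIMP1 recurred, with an excess, in 2 other entries, and whether these hold the same reads was not tested. ENSBTAG00000005042 held between 4 and 39 counts more than TIMP1 in cumulus libraries and between 58 and 132 more in granulosa libraries, which is at most 5.36% and 0.359% above TIMP1. Its log2 fold change between sides was -0.36 in cumulus cells, where that of TIMP1 was -0.35. A further entry, ENSBTAG00000005039, held TIMP1 plus 95.1 ± 6.78 CPM in cumulus and plus 117 ± 12.8 CPM in granulosa libraries (SD, n = 8 each). Its own fold between cell types was 14.5, where that of TIMP1 was 39.0. The table does not pair these entries with names. In the RefSeq gene table of assembly ARS-UCD2.0, TIMP1 overlaps SYN1, a gene of nerve terminals, and no entry named SYN1 was found. The libraries do not mark the RNA strand, so reads of the 2 genes cannot be told apart by strand there. Only the spans of the genes were compared, and whether their exons overlap was not tested. A2M overlaps no other gene in that table, and the entry nearest to it in counts, ENSBTAG00000054774, differed by a summed 23.3%.

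Likeness to other entries was measured as the root mean square distance between log2(CPM + 1) profiles over the 16 libraries, each centred on its own mean. Among 811 other named entries, TIMP1 was the nearest to A2M, at a distance of 0.82, and A2M was the 3rd nearest to TIMP1. Over all 18037 other entries, named or not, TIMP1 ranked 14th for A2M, and A2M ranked 86th for TIMP1. Both genes were chosen as far higher in granulosa than in cumulus cells. Their closeness on profiles that span both cell types was favoured by that choice and is given as a description. The named entries nearer to TIMP1 were FAM46A (0.60) and LYG1, a lysozyme-like gene (0.73), followed by LOC786474 (PNPLA3, 0.89) and MARCH3 (MARCHF3, a ubiquitin ligase gene, 0.94). After TIMP1, A2M was nearest to LYG1 (1.14), FAM46A (1.31), LOC786474 (1.40) and FXYD3, a regulator of the sodium pump (1.54). With 0.5 CPM in place of 1 CPM added, 2 of the 5 nearest to TIMP1 remained, and with 2 CPM 3 of the 5 nearest to A2M did.

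These neighbours share a low cumulus and a higher granulosa level. LYG1 stood between 0.0648 and 4.03 CPM in cumulus and between 77.2 and 161 CPM in granulosa libraries, and its highest cumulus value was in ipsilateral library 2, as for TIMP1. FAM46A stood between 0.0609 and 2.02 CPM in cumulus and between 25.7 and 73.7 CPM in granulosa libraries, with 0.550 CPM in ipsilateral cumulus library 2. The lowest cumulus values of LYG1 and FAM46A lie below what a count of 0 would have allowed, 0.135 to 0.316 CPM. At such levels the added 1 CPM weighs in the distance.

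The proteases that these inhibitors act on, and most other inhibitors, could not be followed by name. Of 136 genes on 8 fixed lists of proteases and inhibitors, 4 were found, and the matrix metalloproteinase, ADAM and plasminogen lists had 0. Beside TIMP1 and A2M these were the serpin gene SERPINA3, with 32 counts in all cumulus and 27 in all granulosa libraries, and the Kazal inhibitor gene SPINK2, with 13 and 4. Both were too low to be tested. A search of the table's symbols for such families, made after the table had been seen, gave 24 entries with these 2 included, of which 8 had no count in any library and 23 had fewer than 100 counts in all. The 1 entry tested, the serpin gene SERPINB12, had a mean of 1.16 ± 0.712 CPM over cumulus and of 2.28 ± 1.78 CPM over granulosa libraries (SD, 8 of each). Its log2 fold change, cumulus minus granulosa, was -0.95 ± 0.65 SE and did not pass (adjusted p = 0.220 by edgeR).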

How the data were processed

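RNA of 16 pools was made into cDNA with the SMART-Seq HT kit and into Nextera XT libraries and read as 75 bp single-end reads, per the labels' protocols. FastQC, Trimmomatic, STAR and DESeq2 are named in the submitters' processing notes. For the counting program, genome build and annotation, the sources used here give nothing. The authors deposited raw read counts per gene entry, and columns were matched to samples by title.

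Members and lists were chosen with earlier results of these data known. Named genes were the members, list genes found by name, and the 5 nearest named entries by profile. The fixed lists held proteases, inhibitors and markers of granulosa, cumulus, theca, oocyte, leukocyte, endothelium, erythrocyte, ovarian surface epithelium and luteal cells. Of 70 markers 4 were found: BCL2L10 and H1FOO (adjusted p = 0.170 by edgeR between cell types for BCL2L10, H1FOO not tested), PF4 and MUC16 (both called lower in cumulus cells, adjusted p = 2.42e-05 and 0.0294 by edgeR). Over all entries tested, 30.3% were called lower in cumulus cells. MUC16 had no count in 10 libraries and 691 of its 1351 granulosa counts in 1 library. PF4 had a mean of only 1.83 CPM in granulosa libraries, and no cell type is read from these calls. Of all entries 27607 carry an Ensembl ID and 2473 a name. Protein and promoter sequences were not analysed here.

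Tests used edgeR 4.0.16 (filterByExpr with minimum count 10 and total 15, TMM, robust quasi-likelihood F-test, Benjamini-Hochberg over all entries, called under 0.05), checked on simulated counts. SE is the fold change over the square root of F. Alternatives used DESeq2 1.42.0, limma 3.58.1, other scalings, no filter, and each library left out. Correlations, their exact permutation p values and the exact binomial intervals used SciPy 1.17.1. The exact permutation tests of the sides went through every split of the libraries. Replicate pairs differed by a chi-square of at least 12.9 per entry, so none was a repeat of 1 library.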

Additional observations from a re-analysis of the deposited data

Results flagged for a closer look

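Of 8 sets of 4 libraries looked at (TIMP1 and A2M in each group), 1 held a library far from the other 3. It was A2M in ipsilateral cumulus cells, where library 2 stood at 16.8 CPM and its gap to the next library was 0.966 of the range of the group, above the 95% limit of 0.829. The place of this library was known before, so this is a description of a value already set apart. Chance alone gives such a gap in about 1 of 20 groups. TIMP1 in the same library stood at 83.1 CPM, the highest of the 8 cumulus libraries, without passing that limit.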

How the results depend on the processing

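By edgeR and limma-voom, 0 entries passed in any side comparison under every scaling, filter and left-out library tried, with 1791 entries in cumulus cells, 579 in granulosa cells and 1358 for the difference of the sides at an unadjusted p under 0.05. DESeq2 called 120, 1 and 1. Without ipsilateral cumulus library 2, which was an alternative added later, DESeq2 called 96 in cumulus cells and 26 for the difference, and gave A2M log2 fold changes of -3.00, -2.44 and, between cell types, -7.08 (-7.06 by edgeR). Leaving out single libraries moved the cumulus side difference from -0.80 to -0.05 for TIMP1 and from -3.01 to -0.75 for A2M. The difference of the side effects ran from -0.79 to -0.04 and from -2.45 to -0.22. Between cell types the log2 fold change ran from -5.51 to -5.14 for TIMP1 and from -7.06 to -5.96 for A2M, and the entries called from 10582 to 11055.

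TIMP1 in granulosa cells, near 0, changed sign with limma-voom (-0.0424), with all 16 libraries in the fit (-0.00322) and in 5 of 8 fits without 1 library (range -0.19 to 0.13). Its difference of mean CPM ran from -255 to 197. The A2M difference of mean CPM ran from -241 to -151 in granulosa and from -9.87 to -3.40 in cumulus cells, and that of TIMP1 in cumulus cells from -24.5 to -1.72. Pearson's r of TIMP1 and A2M ran from 0.69 to 0.84 in cumulus (0.67 without the 2 libraries farthest from the median) and from -0.22 to 0.49 in granulosa cells. The cause of these changes was not tested. Mean levels of both genes moved by less than 1 SD with other scalings. No paired analysis was possible because the labels give no replicate numbers shared between groups. The low A2M counts of 3 ipsilateral cumulus libraries limit the precision there.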
